A study of Mus musculus with 2 samples.

Results

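CTCF sites were examined at bidirectional promoters, the places where 2 protein-coding genes start close together on opposite strands and are transcribed away from each other. A site was counted when its summit lay within 1000 bp of starts of both genes, with the minus-strand start to the left of the plus-strand start or the starts overlapping by at most 1000 bp. Of the 64732 CTCF sites on chromosomes 1 to 19 and X, 819 met this rule, which is 1.27% of all sites and 7.81% of the 10482 sites within 1000 bp of any protein-coding start. They belonged to 694 gene pairs with 1370 genes; 802 sites served 1 pair and 17 served more than 1. The sites came from ChIP-seq, in which DNA bound by a protein is pulled down with an antibody and sequenced, with an antibody against CTCF on lung tissue of newborn (postnatal day 0) B6NCrl mice. The labels give 1 group with 2 replicates and cite the same biosample and the same donor for both, so the spread between them covers handling and sequencing and not differences between animals. No treatment, genotype or second tissue was compared. Peak lists hold no expression, so the lung label could not be checked against marker genes, and whole lung pools many cell types.

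CTCF recognises a long GC-rich DNA motif through its zinc fingers and, by halting cohesin as it extrudes DNA, sets the ends of many chromatin loops. It also binds close to gene starts. Bidirectional promoters are mostly CpG-rich and drive many housekeeping genes, among them genes for DNA repair, mitochondrial proteins and translation, and the 2 genes share the short stretch of DNA from which their polymerases depart. The CTCF core searched for here is a 12-base consensus from the centre of the motif, allowed at most 1 mismatch and either strand, within 50 bp of the summit.

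The cores of the 6 highest ranked bidirectional sites that held one are shown first, and with them that of the weaker site of Col4a1/Col4a2, the basement membrane collagen pair described further on. Each line gives the core in capitals with 9 flanking bases on either side, read 5′ to 3′ on the strand of the core, from the mm10 (GRCm38) genome.
Wrap53/Trp53: cctccctggCCTGCAGAGGGCgcataattt
Dtl/Ints7: tagctgccgCCACTAGGTGGCgccactccc
Caskin2/Tsen54: tgacgctcaCCACTAGGTGGCaccgttgct
Tctn3/Entpd1: ctgatcccgCCGCTAGATGGCagctggcag
Ush1g/Otop2: aacagttctCCAGCAGGGGGCgctagacga
Nae1/Car7: agcgcgcagCCAGTAGGGGGCgccgacgct
Col4a1/Col4a2: ccgggcgcgCCACCATGGGGCcccggctca
The Wrap53/Trp53 stretch lies at chr11:69579481-69579510 (plus strand), the Dtl/Ints7 stretch at chr1:191575985-191576014 (minus), and the Caskin2/Tsen54 stretch at chr11:115814093-115814122 (minus). The Tctn3/Entpd1 stretch lies at chr19:40612405-40612434 (plus), the Ush1g/Otop2 stretch at chr11:115322476-115322505 (plus), the Nae1/Car7 stretch at chr8:104534652-104534681 (plus) and the Col4a1/Col4a2 stretch at chr8:11312584-11312613 (minus). The cores of Dtl/Ints7, Caskin2/Tsen54, Ush1g/Otop2 and Nae1/Car7 had 0 mismatches and the other 3 had 1. The Tctn3/Entpd1 and Col4a1/Col4a2 stretches overlap coding and untranslated exon sequence in the GENCODE M21 annotation, and the other 5 overlap no exon.

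The whole stretch between the 2 starts is shown, on the plus strand, for the 6 highest ranked pairs whose summit lies in a stretch of at most 300 bp with no annotated exon, so that the surroundings of a shared promoter can be seen. In Ruvbl2/Gys1 capitals mark the word CCAAT of the factor NF-Y on the strand shown, and in Trove2/Uchl5 they mark the CTCF core. In Nop14/Grk4 they mark ACTACAA, part of the word of ZNF143. In Park7/Tnfrsf9 they mark CCGGAAG, the word of ETS factors, and CCAAT on the opposite strand. Exosc8/Alg5 held none of these words, and the core of Dram1/Gnptab runs past the end of the stretch, so both have no capitals.
Ruvbl2/Gys1: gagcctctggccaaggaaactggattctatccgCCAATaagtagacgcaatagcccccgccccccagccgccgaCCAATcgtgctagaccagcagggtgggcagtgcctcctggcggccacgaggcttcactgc
Trove2/Uchl5: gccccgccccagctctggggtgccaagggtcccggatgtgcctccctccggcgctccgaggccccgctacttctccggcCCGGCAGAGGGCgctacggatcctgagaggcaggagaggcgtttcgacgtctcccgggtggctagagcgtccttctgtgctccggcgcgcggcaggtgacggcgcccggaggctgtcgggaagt
Nop14/Grk4: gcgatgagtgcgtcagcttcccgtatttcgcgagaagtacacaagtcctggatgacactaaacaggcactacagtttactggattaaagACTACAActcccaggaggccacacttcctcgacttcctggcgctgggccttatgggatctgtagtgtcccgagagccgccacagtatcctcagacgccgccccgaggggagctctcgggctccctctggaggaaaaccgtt
Exosc8/Alg5: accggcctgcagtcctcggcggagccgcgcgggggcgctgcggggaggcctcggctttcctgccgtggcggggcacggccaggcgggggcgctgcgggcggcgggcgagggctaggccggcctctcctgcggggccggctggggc
Dram1/Gnptab: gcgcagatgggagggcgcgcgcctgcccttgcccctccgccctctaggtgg
Park7/Tnfrsf9: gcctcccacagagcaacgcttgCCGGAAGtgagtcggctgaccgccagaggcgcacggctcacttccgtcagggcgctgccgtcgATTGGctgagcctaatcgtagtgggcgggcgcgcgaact
In this order they are chr7:45434710-45434843 (134 bp, 63.4% G or C), chr1:143777069-143777271 (203 bp, 72.4%), chr5:34660149-34660378 (230 bp, 56.5%), chr3:54735394-54735538 (145 bp, 83.4%), chr10:88379081-88379131 (51 bp, 76.5%) and chr4:150914438-150914561 (124 bp, 66.9%). Trove2 codes for the Ro60 RNA-binding protein and Uchl5 for a proteasome-bound deubiquitinase. Ruvbl2 is an ATPase of chromatin remodelling complexes and Gys1 is muscle glycogen synthase. Park7 codes for the redox-protective protein DJ-1 and Tnfrsf9 for a costimulatory receptor of T cells, while Nop14 acts in ribosome assembly and Grk4 phosphorylates G-protein-coupled receptors. Exosc8 is a subunit of the RNA exosome, Alg5 acts in protein glycosylation, Dram1 is a lysosomal membrane protein of autophagy and Gnptab tags enzymes for the lysosome. The best match to the core at the Ruvbl2/Gys1 and Nop14/Grk4 summits had 2 mismatches and that at the Exosc8/Alg5 and Park7/Tnfrsf9 summits had 3, so these 4 sites held no core by the definition used.

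Signals are the authors' own peak heights, on a scale that the sources used here do not state, so they rank sites within a list and are not levels of bound protein. In bulk tissue, binding in fewer cells and weaker binding per cell cannot be told apart. The lists carry no read counts, so the sequencing depth is unknown. Each site was given, for each replicate, the highest signal among the peaks with a summit within 100 bp. Intervals are 95% Wilson intervals and cover counting error only. Sites are not replicates of a condition and there is no second group, so no test was made. Signal medians, the share of all pairs with a summit and the core share of each class are given for both replicates. Most other shares, counts and densities rest on the optimal list alone.

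About 1 annotated bidirectional pair in 2 carried a CTCF site. Of the 1392 pairs in the annotation, 694 had a site (49.9%, interval 47.2 to 52.5%). Counted by gene, 57.3% of the 2730 genes in pairs had a site within 1000 bp of a start, against 37.3% of the 18940 protein-coding genes in no pair; over all protein-coding genes the share was 39.8%. A pair has 2 sets of starts and so a wider target, and a window of the same size was therefore compared. This equalises the length but not the number of starts. Most windows of pairs cover starts of both genes, while those of genes in no pair are centred on the outermost start of 1 gene. Within 500 bp of the midpoint between the starts, 42.3% of pairs (39.7 to 44.9%) held a summit, against 26.5% (25.9 to 27.1%) within 500 bp of the outermost start of genes in no pair. When the highest peaks of each replicate's own list were used in equal number, the shares were 43.6% and 42.8% of pairs in replicates 1 and 2, against 26.8% and 27.0% of genes in no pair. The difference was therefore much larger than the difference between replicates.

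GC content moved with this result. The windows of pairs had a median of 59.3% G or C and those of genes in no pair 54.2%. Between 50 and 55% GC, 31.5% of pairs held a summit, against 23.9% of genes in no pair. Between 60 and 65% GC the shares were 51.2% of pairs and 45.6% of genes in no pair, with intervals of 46.2 to 56.2% and 43.7 to 47.4%. From 65 to 70% GC they were 51.4% of pairs and 49.7% of other genes, and at 70% GC or more 44.3% and 44.4%, with overlapping intervals in both classes. The difference seen at lower GC thus narrowed. At 70% GC or more, the lists of replicates 1 and 2 gave 50.6% and 48.1% of pairs, against 45.6% and 45.4% of other genes. With only 79 pairs in this class (33.9 to 55.3%), a difference there could be neither shown nor excluded. How far GC content accounts for the pooled difference was not tested.

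**Figure D1:**
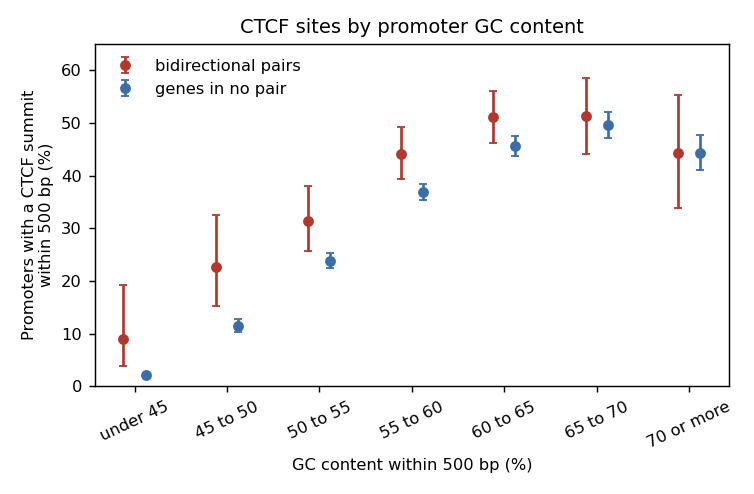
Percentage of promoters with a CTCF summit within 500 bp (vertical axis) by GC content of the same window (horizontal axis), for midpoints of bidirectional pairs (red) and outermost starts of genes in no pair (blue); bars are 95% Wilson intervals. Pairs lie higher in each class below 65% GC, and at 70% GC or more the shares are 44.3% of pairs and 44.4% of genes in no pair.

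The share of pairs with a summit was much the same for all start distances up to 1000 bp. A summit lay within 500 bp of the midpoint in 42.6% of the 263 pairs with overlapping starts, 47.9% of the 430 pairs with starts 0 to 100 bp apart, 42.8% of the 395 pairs over 100 and up to 300 bp apart and 42.8% of the 180 pairs over 300 and up to 1000 bp apart. In the 124 pairs over 1000 and up to 2000 bp apart the share was 20.2% (14.0 to 28.1%). At these distances the window holds neither of the 2 starts, so this share cannot be read as fewer sites at such pairs. The windows of these 124 pairs were also poorer in G and C, with a median of 47.4%, against 58.9 to 60.4% in the other classes. On chromosome X, 27.5% of 40 pairs had a site, the lowest share of any chromosome, and on chromosome 19 the share was highest, at 63.6% of 44 pairs. Over all chromosomes it was 49.9%. Both values are extremes picked from all chromosomes, rest on few pairs and have no interval, so no chromosome effect is read from them.

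Bidirectional sites lay close to a start but mostly just inside one of the genes. The rule sets these distances in part, since it asks for starts of 2 genes, so they are given as a description. The median distance from the summit to the nearer start was 99 bp and to the farther start 353 bp; at the 9663 other promoter sites, nearly all with 1 gene, the nearer start was 218 bp away. Only 200 of the 819 summits (24.4%) lay between starts that did not overlap and 53 (6.47%) lay where the starts overlapped, while 566 (69.1%, 65.9 to 72.2%) lay on the transcribed side of 1 gene. The minus-strand gene held 297 of these and the plus-strand gene 269. By annotation, 40.9% of bidirectional summits fell in untranslated exon sequence, against 21.04% of other promoter summits, and 15.3% fell in coding exons, against 9.37%. Introns held 28.0% of bidirectional summits and 30.1% of the others. Intergenic sequence held 10.01% of bidirectional summits, against 32.1% of other promoter summits. Since the rule places a second gene upstream of the first, these annotation shares follow in part from the choice of sites.

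Per length of sequence, short gaps held about as many summits as the stretch just upstream of other genes. Between starts 20 to 300 bp apart there were 0.606 summits per kb (55 summits in 90.8 kb), close to the 0.610 per kb in the last 100 bp upstream of genes in no pair. Between starts over 300 and up to 2000 bp apart there were 0.298 per kb (85 summits in 285 kb). The first 100 bp inside the genes of pairs with starts 0 to 300 bp apart held 0.745 summits per kb, against 0.421 per kb in the same stretch of genes in no pair. From 100 up to 200 bp inside, the densities were 0.461 per kb in pairs and 0.288 per kb in other genes, and from 200 up to 500 bp 0.370 per kb in pairs and 0.212 per kb in other genes. From 500 up to 1000 bp they were 0.154 per kb in pairs and 0.127 per kb in other genes.

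**Figure D2:**
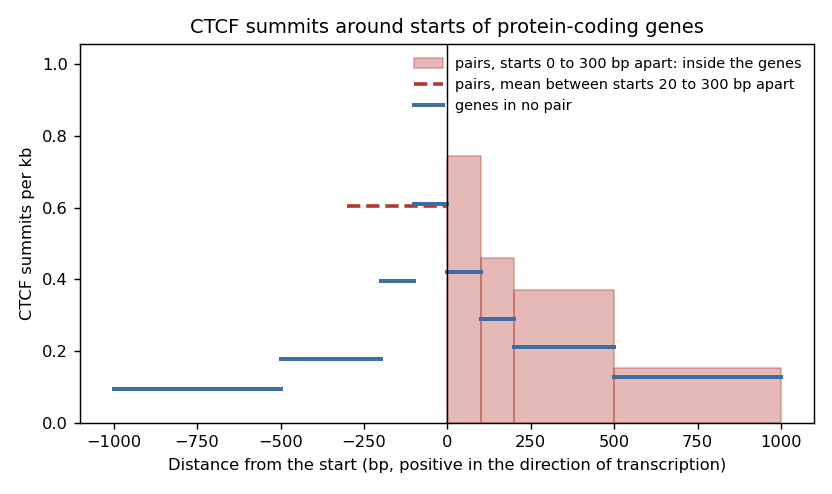
CTCF summits per kb of sequence (vertical axis) by distance from a gene start (horizontal axis, bp, positive in the direction of transcription). Red bars are positions inside the genes of pairs with starts 0 to 300 bp apart, the dashed red line is the mean between starts 20 to 300 bp apart, and blue lines are genes in no pair. The first 100 bp inside hold 0.745 summits per kb in pairs and 0.421 in genes in no pair. Positions inside 1 gene of such a pair also lie upstream of the other gene.

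Signal at bidirectional sites was slightly below that at other promoters. The median was 28.9 in replicate 1 and 26.7 in replicate 2 at bidirectional sites, 31.7 and 29.5 at other promoter sites, and 43.2 and 39.8 at the 54250 sites elsewhere. On the log2 scale the median of the replicate mean was 4.78 at bidirectional sites and 4.97 at other promoter sites, a difference of -0.19, small beside the range within either class. At 70% GC or more within 100 bp of the summit the order was the opposite, with medians of 30.7 and 29.1 at bidirectional sites, against 26.9 and 26.0 at other promoter sites. Across the alternatives tried, the log2 difference ran from -0.32 to -0.12. The 25th and 75th percentiles of bidirectional sites were 16.6 and 66.1 in replicate 1 and 14.7 and 59.0 in replicate 2. By the pooled signal, 109 bidirectional sites (13.3%) fell in the highest quartile of all sites and 268 (32.7%) in the lowest, and 9 were among the 1000 highest ranked.

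Replicate agreement is given as a description of precision, since the optimal list was itself made from both replicates. Peaks of both replicates were found at 750 bidirectional sites, while 35 had none in replicate 1 and 38 none in replicate 2, including 4 with none in either. Over the 750 sites the rank correlation between replicates was 0.908, a value that also reflects the wide range of signals. The SD of the log2 ratio between replicates was 0.54 at bidirectional sites, 0.53 at other promoter sites and 0.44 elsewhere, and 53 bidirectional sites (7.07%) differed by more than 2-fold. Among bidirectional sites this SD was 0.13 in the highest quartile of signal and 0.76 in the lowest, so values of weak sites are far less certain. The shorter of the authors' IDR lists, the conservative one, held 80.3% of bidirectional sites (77.5 to 82.9%) and 82.6% of other promoter sites, against 87.4% of all sites. It also held sites that are not in the optimal list.

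**Figure D3:**
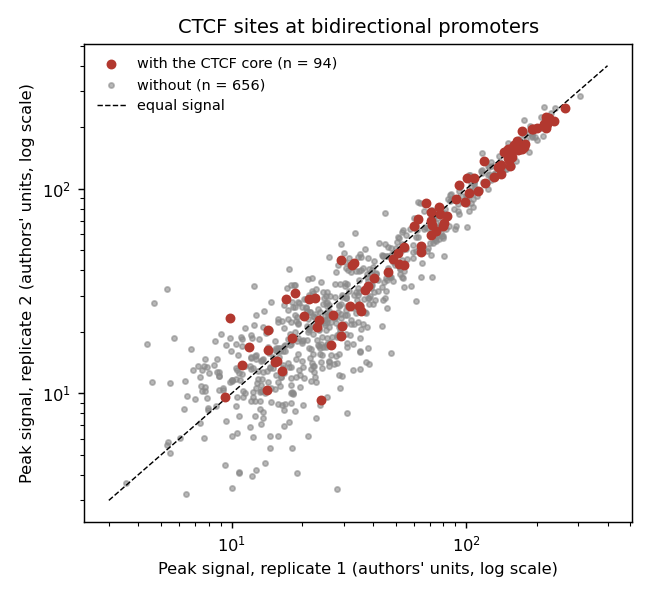
Peak signal of replicate 1 (horizontal axis) and replicate 2 (vertical axis) at the 750 bidirectional sites with a peak in both, in the authors' units on log scales; the dashed line is equal signal. Sites with the CTCF core (red, 94 sites) reach down to weak signals but make up more of the strong end than sites without (grey, 656 sites), and the replicates spread more at low signal.

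Few bidirectional sites held the CTCF core. It was found at 95 of 819 bidirectional sites (11.6%, 9.58 to 14.0%), at 21.3% of other promoter sites (20.5 to 22.1%) and at 53.7% of sites elsewhere; over all sites of the list the share was 48.3%. With each replicate's own highest peaks the shares were 11.4% and 11.2% at bidirectional sites and 21.3% and 21.04% at other promoter sites in replicates 1 and 2, so the difference exceeded that between replicates. Without any mismatch, 13 bidirectional sites (1.59%) and 4.10% of other promoter sites matched. With 2 mismatches allowed, 40.5% and 51.5% matched. Windows of the same size placed 1000 bp to either side of the bidirectional summits held the core in 9 of 1638 cases (0.549%). At 2 mismatches the share was 7.998%, so a match with 2 mismatches is also common beside the summits. Beside other promoter summits the shares were 1.28% (248 of 19326) and 9.41%. The background thus also differed between the classes, and its part in the lower core share was not tested.

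The lower share was seen at every level of signal. In the highest quartile of all sites by pooled signal, 33.0% of bidirectional sites held the core, against 49.7% of other promoter sites and 73.1% of sites elsewhere. In the lowest quartile these shares were 4.10% of bidirectional sites, 7.62% of other promoter sites and 35.1% of sites elsewhere. The intervals of bidirectional and other promoter sites did not overlap in any quartile but the lowest, where they ran from 2.31 to 7.199% at bidirectional sites and from 6.72 to 8.64% at other promoter sites.

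**Figure D4:**
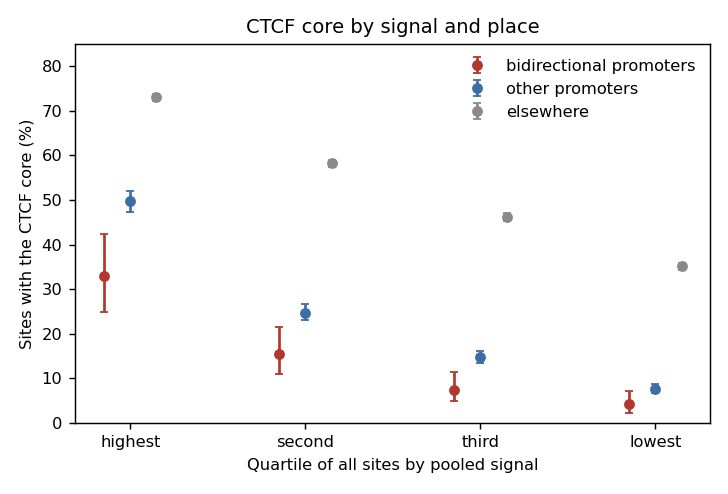
Percentage of sites with the CTCF core (vertical axis) by quartile of all sites ranked on pooled signal (horizontal axis), for bidirectional promoters (red), other promoters (blue) and sites elsewhere (grey); bars are 95% Wilson intervals. In each quartile bidirectional sites are lowest, with 33.0% in the highest quartile and 4.10% in the lowest.

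GC content and distance also moved with the core. Within 100 bp of the summit, bidirectional sites had a median of 63.7% G or C, against 61.7% at other promoter sites and 48.8% elsewhere, and the difference of 1.99 points between both promoter classes was 0.995 points with replicate 1 alone and 1.49 with replicate 2 alone. Bidirectional sites had a median ratio of observed to expected CpG of 0.788, against 0.666 and 0.196. Below 50% GC, 21.1% of 76 bidirectional sites held the core, against 41.0% of other promoter sites, and from 65 to 70% GC 4.86% of 185 did, against 13.3%. At 70% GC or more the order turned, with 12.9% of 170 bidirectional sites (8.70 to 18.8%) and 11.3% of other promoter sites (10.1 to 12.8%), and the intervals overlapped. Within 100 bp of a start the core was found at 9.002% of bidirectional sites and 16.8% of other promoter sites. Over 300 and up to 500 bp away the shares were 19.6% of bidirectional sites and 20.5% of other promoter sites, and farther out 19 of 76 bidirectional sites and 31.9% of other promoter sites held it. The part of GC content and distance in the lower core share was not tested.

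Among bidirectional sites, signal and match to the core went together. The 13 sites with no mismatch had median signals of 155 and 143 in replicates 1 and 2, and the 82 sites with 1 mismatch 70.8 and 67.0. With 2 mismatches (237 sites) the medians were 34.0 and 31.5, with 3 (353 sites) 25.3 and 22.7, and with 4 or more (134 sites) 19.3 and 16.6. The order was the same in both replicates. Yet of the 50 highest ranked bidirectional sites only 21 held the core, a further 21 matched with 2 mismatches and 8 had 3 or more. The 23 sites at starts over 1000 bp apart held the core more often, in 39.1% of cases (22.2 to 59.2%), and had median signals of 91.2 and 69.9. The core pointed along the strand of the nearer gene at 53 of the 92 bidirectional sites with a single best strand (57.6%, 47.4 to 67.2%) and at 55.6% of other promoter sites.

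The mismatch, where there was 1, fell at the third base of the core in 36.7% of 79 bidirectional sites with a single best match, in 27.7% of other promoter sites and in 10.4% of sites elsewhere, counting from the 5′ end of the core. The fifth base held it in 22.8% of bidirectional sites, 24.2% of other promoter sites and 42.4% of sites elsewhere.

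The strongest bidirectional site lay where Rab2b and Tox4 overlap at their starts, at chr14:52279294-52279629, with signals of 306 and 285 in replicates 1 and 2. Rab2b is a small GTPase of Golgi traffic and Tox4 an HMG-box protein. Its best match to the core had 2 mismatches. The site of Wrap53 and Trp53 followed, with 264 and 250; Wrap53 codes for a protein that brings telomerase to Cajal bodies and Trp53 for the tumour suppressor p53. It lay in an intron, 141 bp from the Wrap53 start and 894 bp from the Trp53 start, over the core shown above. The Ddias/Prcp site, with 239 and 248, lay between starts 1005 bp apart; Ddias restrains apoptosis after DNA damage and Prcp is a lysosomal carboxypeptidase. The replicates put these 3 sites among the strongest alike, although in replicate 2 one of the next 9, Nfkbil1/Atp6v1g2, was higher than Wrap53/Trp53 and Ddias/Prcp.

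The next 9 pairs of the ranking had signals between 214 and 236 in replicate 1 and between 209 and 251 in replicate 2. Gemin4/Dbil5, with 230 and 234, pairs a member of the SMN complex that assembles spliceosomal particles with a testis acyl-CoA-binding protein, and its best match had 3 mismatches. Nfkbil1/Atp6v1g2, with 214 and 251, had the widest disagreement of the 9 between replicates. Dtl/Ints7, with 236 and 215, joins the substrate receptor of a ubiquitin ligase active in DNA replication with a subunit of the Integrator complex. Caskin2/Tsen54, with 225 and 222, and Ush1g/Otop2, with 221 and 217, also held a core with 0 mismatches. Tsen54 belongs to the tRNA splicing endonuclease, Ush1g to the hair bundle of the inner ear, and Otop2 is a proton channel. Tctn3/Entpd1 had 220 and 226, Timm21/Fbxo15 234 and 214, and Cdiptos/Cdipt 218 and 224. Tctn3 acts in the transition zone of cilia, Entpd1 degrades extracellular ATP, Timm21 works in mitochondrial protein import and Cdipt makes phosphatidylinositol. Ruvbl2/Gys1, whose promoter is shown above, had 223 and 209.

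**Figure D5:**
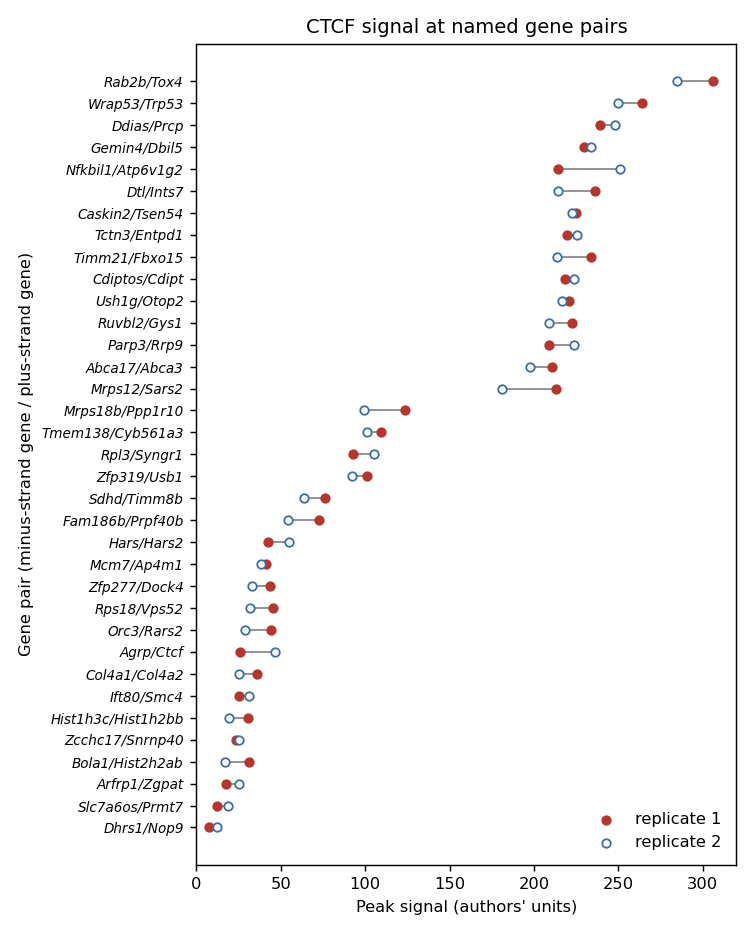
CTCF signal (horizontal axis, authors' units) in replicate 1 (filled) and replicate 2 (open) at the named gene pairs with a peak in both replicates, ordered by rank from the highest (Rab2b/Tox4, 306 and 285) to the lowest (Dhrs1/Nop9, 7.31 and 12.1). The grey line joins the replicates of a pair.

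At the low end, the 3 last ranked sites, at Tsc2/Nthl1, Exosc1/Zdhhc16 and F8/Fundc2, had no replicate peak within 100 bp and pooled signals of 8.44, 11.3 and 6.11. Each had another CTCF site within 341 bp. The starts closest to each other among pairs with a site were those of Arfrp1 and Zgpat, 1 bp apart, with signals of 17.3 and 25.5, followed by Slc7a6os/Prmt7 (3 bp; 12.2 and 18.6) and Dhrs1/Nop9 (3 bp; 7.31 and 12.1). All 3 lay below the median of bidirectional sites in both replicates.

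Gene groups were described by how many of their members in a bidirectional pair had a site, beside the 50.2% of all 2730 genes in pairs. DNA repair genes had a site for 20 of 36 genes in pairs (55.6%, 39.6 to 70.5%), an interval that spans the share of all genes in pairs. Parp3/Rrp9 was strongest, with 209 and 224; Parp3 is a poly(ADP-ribose) polymerase family member that acts at DNA breaks and Rrp9 is part of the U3 particle of ribosome assembly. Atm, Fancd2, Mre11a, Xpc and Xrcc6 were also among the 20, and the 22 sites had medians of only 24.5 and 20.8. The core was found at 1 of the 22, too few sites to set against the 11.6% of all bidirectional sites.

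Mitochondrial and translation genes varied. Mitochondrial ribosomal protein genes had a site for 14 of 35, led by Mrps12/Sars2 with 213 and 181; Sars2 charges mitochondrial tRNA with serine. Mrps18b/Ppp1r10 followed with 124 and 99.4. Aminoacyl-tRNA synthetase genes had a site for 8 of 11 (interval 43.4 to 90.3%), including the divergent pair Hars/Hars2, the cytosolic and mitochondrial histidyl-tRNA synthetases, with 42.4 and 54.7. Cytosolic ribosomal protein genes had a site for 7 of 17, led by Rpl3/Syngr1 with 92.8 and 105 over a core, then Rps18/Vps52 with 45.4 and 31.6. Mitochondrial import and chaperone genes had a site for 7 of 11, led by Timm21/Fbxo15 and then Sdhd/Timm8b, with 76.2 and 63.8. Among the 7 were Hspd1 and Hspe1, the mitochondrial chaperonin and its cochaperonin. Each of these intervals spans the share of all genes in pairs, so none of these groups can be told from it by count.

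The lowest share was that of histone genes. Replication-dependent core histone genes had a site for 9 of 38 (23.7%, 13.0 to 39.2%), an interval below the 50.2% of all genes in pairs, and their 6 sites were weak, with medians of 19.4 and 12.3. Hist1h3c/Hist1h2bb had 30.7 and 19.6 and Bola1/Hist2h2ab 31.1 and 16.8. These genes lie in clusters, so their pairs share neighbours and are not independent.

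Zinc-finger genes named Zfp had a site for 12 of 37 (32.4%, 19.6 to 48.5%), an interval that ends just below the share of all genes in pairs. Of all 394 Zfp genes, in pairs or not, 45.2% had a promoter site, against 39.8% of all protein-coding genes. The sites in pairs were led by Zfp319/Usb1 with 100.9 and 92.1, then Zfp277/Dock4 with 43.6 and 33.0. Splicing genes had a site for 10 of 23, with medians of 16.0 and 13.4 over 12 sites; Fam186b/Prpf40b had 72.4 and 54.2 and Zcchc17/Snrnp40 had 23.7 and 24.997. Cilium genes had a site for 14 of 22, where Tmem138/Cyb561a3 followed Tctn3/Entpd1 with 109 and 101.3. Tmem138 and Tctn3 both act at the ciliary transition zone. Cell cycle and replication genes had a site for 3 of 11, namely Mcm7 of the replicative helicase, Orc3 of the origin recognition complex and Cdc25b, a phosphatase that activates cyclin-dependent kinases. Mcm7/Ap4m1 had 41.1 and 38.6 and Orc3/Rars2 had 44.2 and 28.7. The intervals were 25.6 to 63.2% for splicing, 43.0 to 80.3% for cilium and 9.75 to 56.6% for cell cycle and replication genes. Each spans the 50.2% of all genes in pairs, so none of these groups can be told from it by count.

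Genes of chromosome architecture had a site for 7 of 9 (77.8%, 45.3 to 93.7%), an interval that spans the 50.2% of all genes in pairs. The 7 were Ctcf itself, the cohesin subunit Smc1a, Smc6 of the related repair complex, and the condensin subunits Ncapd2, Ncapd3, Ncaph2 and Smc4. The signals were modest, with medians of 23.0 and 24.2, and 0 of the 7 sites held the core, too few to set against the 11.6% of all bidirectional sites. Agrp/Ctcf had 26.1 and 46.5, which is a wide disagreement between replicates, and Ift80/Smc4 had 25.5 and 31.4. The 6 genes of basement membrane collagen IV all lie in head-to-head pairs, and only Col4a1/Col4a2 had a site. It had 35.7 and 25.4 over the core shown above, in a coding exon 245 bp and 266 bp from the 2 starts. Among the lung epithelial genes, Abca3, a lipid transporter of surfactant organelles, was the only one in a pair; the site between it and Abca17 had 210 and 198.

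Some pairs carried more than 1 site. Of the 694 pairs, 563 had 1 site, 120 had 2, 10 had 3 and 1, Uqcrh/Lrrc41, had 4. In the 131 pairs with several, the closest sites lay a median of 605 bp apart, 95 pairs had no core, 35 had 1 and 1 had 2 or more. Another site lay within 500 bp of 11.4% of bidirectional sites, against 10.9% of other promoter sites and 2.77% of sites elsewhere.

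Short promoter words were counted on both strands within 100 bp of each summit, where a match is a description of the letters and not a bound factor. CCGGAAG occurred at 14.4% of bidirectional sites (12.2 to 17.0%), 6.37% of other promoter sites and 1.33% of sites elsewhere. ACTACAA occurred at 3.91% of bidirectional sites (2.78 to 5.46%), 1.72% of other promoter sites and 1.98% elsewhere. AAGATGGC, the word of YY1, occurred at 3.91%, 2.14% and 2.16% of the same 3 classes. The GC box GGGCGG occurred at 38.2% of bidirectional and 38.8% of other promoter sites, and CCAAT at 17.3% and 18.0%, with overlapping intervals. TGCGCATG, the word of NRF1, occurred at 1.71% of bidirectional and 1.40% of other promoter sites, TATAAA at 3.05% and 3.27%, and TGACGTCA, the word of CREB, at 0.488% and 0.973%. Each word was searched alone, so matches of different words may overlap. Bidirectional summits lay nearer to a start than other promoter summits, and in sequence richer in G and C. The part of both in these shares was not tested.

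Within 100 bp of the midpoints of pairs, CCGGAAG occurred in 22.05% of the 694 pairs with a CTCF site and 15.8% of the 698 pairs without one, against 8.27% of starts of genes in no pair. GGGCGG occurred in 55.9% of pairs with a site, 42.0% of pairs without and 39.2% of genes in no pair. CCAAT occurred in 30.3% of pairs with a site, 30.9% of pairs without and 27.8% of genes in no pair, and TATAAA in 2.88%, 5.01% and 8.80% of the same 3 classes. Pairs with a site were richer in G and C than pairs without, with medians of 60.9% and 57.9%. The CTCF core lay within 500 bp of the midpoint in 14.6% of pairs with a site (12.1 to 17.4%) and in 7.16% of pairs without (5.48 to 9.32%).

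Sites just inside and just outside the 1000 bp bound had similar signals. The 49 bidirectional sites whose farther start was over 900 bp away had median signals of 32.8 and 29.4 and held the core in 15 cases. The 36 sites that met the rule only at 1100 bp had medians of 35.5 and 29.5 and held it in 8.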

How the data were processed

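The deposited files are 5 peak lists on mm10: 1 per replicate, 1 pooled, and the optimal and conservative lists that the authors derived from these by IDR, a method that keeps peaks ranked alike in replicates. The signal of each peak and the offset of its summit are as the authors deposited them; for the aligner, the peak caller, the scaling of the signal, the IDR threshold and the role of 1 further input file, the sources used here give nothing. Peak lists have no read counts, so depth and its precision are unknown. Sites are those of the optimal list on chromosomes 1 to 19 and X, 64732 of 64742. Starts are those of protein-coding transcripts of protein-coding genes in GENCODE M21, and sequences come from GRCm38.p6. Scripts ran in Python 3.11.15 with numpy 2.4.6, pandas 2.3.3 and scipy 1.17.1, and were tested on simulated data. When each replicate stood alone, its 300000 peaks were reduced to the highest, as many as in the optimal list. The text names the 12 pairs with the highest mean rank, the 2 highest of each gene list, the 3 lowest and the 3 with the closest starts, leaving out predicted gene names; a few further list members and pairs whose sequence is shown are named too, and 1 pair that the rule names is not reported here. The members and lists were chosen with earlier results of these data known. Both replicates form 1 group, so no comparison between groups and no test was possible. Alternatives changed the list, the distances, the annotation, the core definition and the replicates.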

Additional observations from a re-analysis of the deposited data

Results flagged for a closer look

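The longer lists held peaks at many pairs counted as having no site. Of the 698 bidirectional pairs without a site of the optimal list, 76.2% (72.9 to 79.2%) had a peak of the longer pooled list under the same rule, 64.0% had peaks of both replicates, 8.74% had a site of the conservative list and 18.3% had no peak in the pooled or replicate lists. The median of the highest pooled signal was 56.1 at the 694 pairs with a site and 12.6 at the 532 pairs with a pooled peak and no site; 440 of these 532 also had peaks of both replicates. The pooled and replicate lists are long, with 300000 peaks each, so windows of equal size were compared. Of the windows without a site, a pooled peak lay within 500 bp of 75.1% of 803 pair midpoints and 38.7% of 13923 starts of genes in no pair, and of 16.4% and 13.2% of the same windows moved 20 kb to either side. GC content differs between these windows, and its part was not tested. These values were noted because peaks stood in lists that the main count of sites does not use.

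The 1417 pooled peaks at bidirectional pairs that are in neither IDR list held the CTCF core in 1.06% of cases (0.643 to 1.74%). In windows 1000 bp to either side of them the share was 1.27%. The value was noted because these peaks are used in no count of sites. By the core they could not be told from the sequence beside them.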

How the results depend on the processing

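No direction reversed under any alternative tried. The conservative list gave 46.5% of pairs with a site, a median log2 signal of 4.90 and a log2 signal difference between bidirectional and other promoter sites of -0.17. The 32366 sites with the highest pooled signal gave 296 bidirectional sites, 20.3% of pairs, 7.79 percentage points more genes with a site in pairs than outside them (19.96 as reported), the core at 21.96% of sites with a difference from other promoter sites of -14.1 points (-9.72 as reported), a median log2 signal of 6.23 and difference of -0.32, 36.8% of summits between or in the overlap of starts (30.9% as reported), a GC difference of 2.49 points (1.99 as reported), a replicate SD of 0.26 and 100% in the conservative list. A limit of 500 bp gave 524 sites, 38.1% of pairs, the core at 8.59%, a signal difference of -0.15 and a GC difference of 1.49. It put 36.1% of summits between starts, which here and below includes the overlap of starts. One start per gene gave 23.2% between starts, and basic transcripts 27.4%, against 30.9% as reported. Both gave a GC difference of 0.995, and signal differences of -0.23 and -0.16. Other signal differences were -0.20 for starts that do not overlap and -0.22 without sites near a stronger one. With replicate peaks within 50 bp the median was 4.99 and the difference -0.12. The core without mismatch was at 1.59% of sites (difference -2.51), and with 2 mismatches at 40.5%. GC within 50 bp of the summit gave a difference of 0.990. Leaving out either replicate gave signal differences from -0.15 to -0.14, signal medians from 4.74 to 4.85, 684 to 692 of the sites within 100 bp of one of the remaining replicate's highest peaks, 50.5 to 51.2% of pairs, the core at 11.2 to 11.4%, core differences from -9.84 to -9.81, gene differences from 20.5 to 21.01, 31.1 to 31.2% between starts and GC differences from 0.995 to 1.49; the last 4 were added after seeing the data. The signal difference moved in every alternative by more than its SD over the replicates. No paired analysis was possible because there is 1 group. The limits are 1 donor, 2 replicates that do not measure variation between animals, unknown depth and signal scaling, no control track used here, and an annotation of starts that is not specific to lung.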
